A study of Mus musculus with 2 samples.

Results

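Proliferating cells were picked from single-cell RNA-seq of sorted adult mouse brain cells by the UMIs (molecules counted by their barcode) of 6 cell-cycle genes: Mki67, Top2a, Birc5, Cdk1, Ube2c and Cenpf. A cell counted as proliferating when these genes summed to 5 or more UMIs. Only cells that reached 1000 UMIs and 500 genes, with no more than 10% of UMIs from mitochondrial genes, were kept. 193 of 19161 kept cells met the rule. There were 2 libraries of whole-brain cells: the IL34LacZ/+ library, here called heterozygous, and the IL34LacZ/LacZ library, here called homozygous. The LacZ allele of Il34, the gene of a CSF1 receptor ligand, was therefore carried by both groups, and no wild-type library was used. Per the labels, surface markers had been used to sort microglia, border-associated macrophages (BAMs), astrocytes, endothelial cells, mural cells and fibroblasts, and no blood lineage was named among them. How many animals stood behind each library, and their sex and exact age, is not stated. With 1 library for each genotype no difference between genotypes could be tested, so intervals are exact 95% intervals that cover counting error only.

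A dividing cell copies its DNA in S phase and separates the copies in mitosis, with a gap on either side. E2F factors switch on the enzymes of DNA copying at the start of S phase, whereas the genes of mitosis are switched on later by the MuvB complex with B-MYB and FOXM1, which reads an element called the cell cycle genes homology region (CHR). In the adult brain most neurons and vascular cells rest, microglia and border macrophages renew themselves slowly, and the blood lineages are built from progenitors that divide in quick succession.

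Promoters of 4 selecting genes and 2 S-phase genes are shown because the motifs in them differ between the mitotic and the S-phase genes that the results turn on. RefSeq promoters (GRCm38.p6, 250 bases before to 50 after a start) were searched on both strands for the CHR, written TTTGAA, for the CCAAT box, written CCAAT, and for E2F sites, written TTTGGCGC, TTTCCCGC, TTTCGCGC or TTTGCCGC. In the stretches upstream of the mitotic genes the capitals mark CHR and CCAAT matches on either strand.
Mki67, chr7:135716453-135716532, minus strand: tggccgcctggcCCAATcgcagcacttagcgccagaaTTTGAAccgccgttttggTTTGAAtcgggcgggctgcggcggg
Top2a, chr11:99024326-99024405, minus strand: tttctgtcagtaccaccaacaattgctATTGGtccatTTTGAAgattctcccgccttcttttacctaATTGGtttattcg
Cdk1, chr10:69352941-69353020, minus strand: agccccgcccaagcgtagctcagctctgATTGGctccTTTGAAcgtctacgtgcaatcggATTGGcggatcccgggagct
Ube2c, chr2:164769849-164769928, plus strand: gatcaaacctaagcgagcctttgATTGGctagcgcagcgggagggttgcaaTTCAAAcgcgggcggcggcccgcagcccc
Mcm5 and Mcm6 encode subunits of the replicative helicase, and in their stretches the capitals mark E2F matches, which overlap on the opposite strands.
Mcm5, chr8:75109320-75109399, plus strand: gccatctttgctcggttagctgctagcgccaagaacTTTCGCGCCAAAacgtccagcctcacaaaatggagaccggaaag
Mcm6, chr1:128359772-128359851, minus strand: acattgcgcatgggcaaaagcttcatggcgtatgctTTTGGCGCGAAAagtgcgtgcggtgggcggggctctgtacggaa

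TTTGAA was found in 5 of the 6 promoters of the selecting genes, and Birc5 had no match in this window. Among the 36 genes of a G2 and mitosis list, 30 had 33 promoters in the table, of which 23 (69.7%) held TTTGAA. It stood in 4 of 28 promoters (14.3%) of 25 matched genes from a 30-gene S-phase list and in 5878 of all 32851 promoters (17.9%). The E2F letters went the other way, with 12 of 28 S-phase promoters (42.9%), 0 of 33 G2 and mitosis promoters, 1 of the 6 promoters of selecting genes (Cdk1) and 744 of all promoters (2.26%). CCAAT was found in 81.8% of the G2 and mitosis promoters, 64.3% of the S-phase promoters and 37.4% of all. These matches describe letters in a fixed window and are not evidence of binding.

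The heterozygous library held 17168 barcodes and 87394167 UMIs, and the homozygous library 18858 barcodes and 95505407 UMIs. The filters kept 8812 (51.3%) and 10349 (54.9%) cells, with median depths of 3665.5 and 3838 UMIs. Proliferating cells were deeper, with medians of 12901 and 12710 UMIs, so every share of cells that meets a UMI sum also depends on depth. Scrublet, a doublet caller, marked 6.44% and 6.46% of the barcodes, and 1 and 3 of the proliferating cells. The libraries shared 103 barcode sequences, of which 2 belonged to proliferating cells.

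The 6 selecting genes were high by construction, so their levels are given as a description. Mki67 (chr7:135689784-135716361), the Ki-67 antigen that coats mitotic chromosomes, stood at 496 CPM (UMIs scaled by depth, where 100 CPM is 1 UMI per 10000) in heterozygous and 422 in homozygous proliferating cells, against 1.10 and 1.14 in all other kept cells. Top2a (chr11:98992943-99024189), the topoisomerase that untangles sister DNA, stood at 805 and 832 CPM against 0.907 and 1.52. Birc5 (chr11:117849251-117855743), the survivin subunit of the chromosomal passenger complex, stood at 411 and 302 CPM. Cdk1 (chr10:69335146-69352938), the kinase that drives entry into mitosis, was the least counted, at 205 and 149 CPM, and had a UMI in 69.8% and 66.2% of the cells. Ube2c (chr2:164769898-164778822), the ubiquitin-conjugating enzyme of the anaphase-promoting complex, stood at 669 and 478 CPM. Cenpf (chr1:189640606-189688086), a kinetochore protein, stood at 414 and 298 CPM, but its 6.90 and 7.10 CPM in the other cells were the highest background of the 6.

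The summed UMIs ran from 5 to 210 with a median of 35 in the heterozygous library and from 5 to 443 with a median of 22.5 in the homozygous library. Just outside the rule, 7 and 14 cells had a sum of 4, and just inside it 4 and 10 cells had a sum of 5. Most cells lay far from the limit, since 52 of 63 and 99 of 130 had 10 or more. All 6 genes were seen in 35 and 55 cells, and 6 cells in all reached the sum through 1 gene alone.

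**Figure D1:**
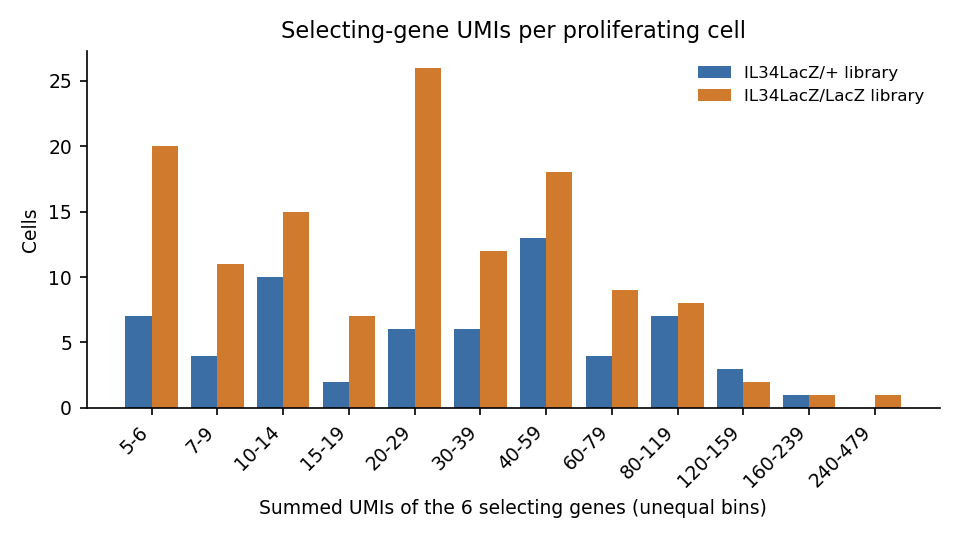
Number of proliferating cells (vertical axis) by the summed UMIs of the 6 selecting genes (horizontal axis, unequal bins) in the 2 libraries. The medians were 35 and 22.5 UMIs, and 52 and 99 cells had 10 or more.

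Blood lineages supplied most of the proliferating cells although they were a small part of the libraries. Each cell was classed by lineage marker genes, none of which is a cell-cycle gene, into 12 classes or left unresolved. The blood classes (myeloid, erythroid, B-lineage, and T or NK) held 41 of 63 heterozygous proliferating cells (65.1%, interval 52.0 to 76.7%) and 91 of 130 homozygous ones (70.0%, 61.3 to 77.7%). The same classes held 2.98% and 5.11% of all kept cells. Within them 15.6% (11.4 to 20.5%) and 17.2% (14.1 to 20.7%) of the cells met the rule, against 12 of 7223 (0.166%, 0.0859 to 0.290%) and 19 of 7978 (0.238%, 0.143 to 0.372%) in the resident classes. The intervals of blood and resident classes did not overlap in either library.

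Myeloid-like cells, which take in granulocyte, monocyte, progenitor, mast or basophil and dendritic markers, were the largest class. They gave 25 heterozygous and 71 homozygous proliferating cells, and 18.8% (12.5 to 26.5%) and 25.4% (20.4 to 30.9%) of the class met the rule. With each cell thinned to 2000 UMIs the shares were 10.5% (5.70 to 17.3%) and 9.16% (6.01 to 13.2%), so the order of the libraries turned. Their leading genes over other cells were Camp, Ngp, Elane, S100a8, Prtn3 and S100a9, all proteins of neutrophil granules or cytosol. By leading marker list, 15 and 39 of them were granulocyte-led, 8 and 23 monocyte-led, 2 and 4 progenitor-led, and 0 and 5 mast or basophil-led, while none was dendritic-led. B-lineage-like cells gave 8 of 44 (18.2%, 8.19 to 32.7%) and 12 of 93 (12.9%, 6.85 to 21.5%). Erythroid-like cells gave 8 of 54 (14.8%, 6.62 to 27.1%) and 5 of 97 (5.15%, 1.69 to 11.6%). Of these 5 homozygous cells, 1 met the rule by 6 UMIs of Ube2c alone. It also carried endothelial markers, with 14 UMIs each of Cldn5 and Flt1. Another carried B-lineage markers, with 63 UMIs of Vpreb3. T or NK-like cells gave 0 of 32, which allows a share of up to 9.38%, and 3 of 59 (5.08%, 1.06 to 14.1%).

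**Figure D2:**
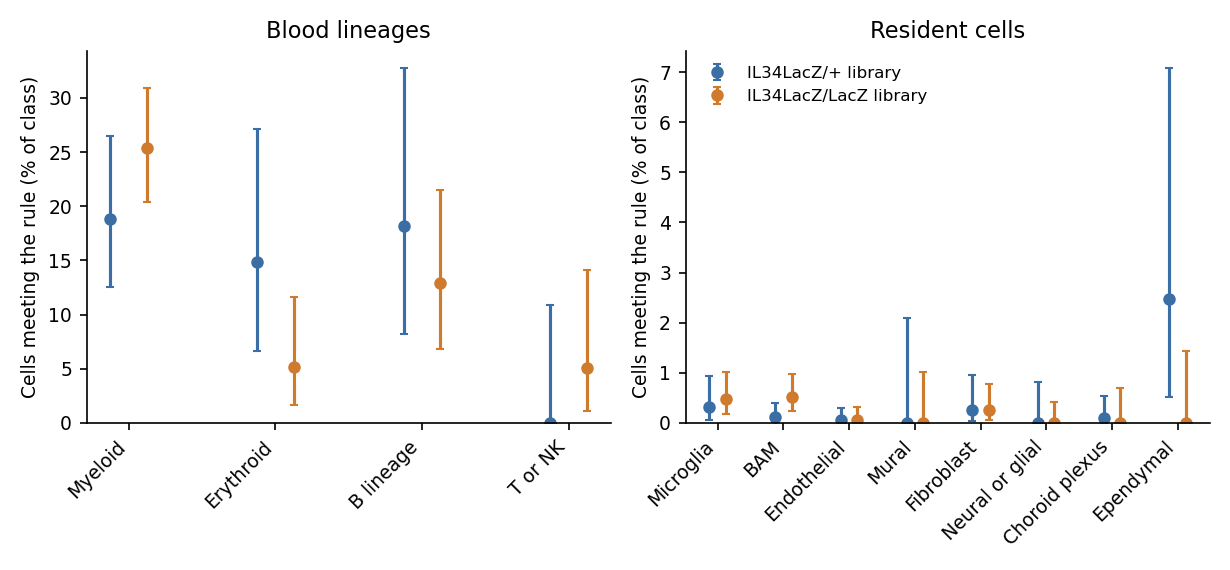
Percent of each lineage class that met the rule (points) with exact 95% binomial intervals (bars), by library, with blood lineages on the left and resident cells on the right (separate scales). Myeloid cells stood at 18.8% and 25.4%, and microglia, BAMs, endothelial cells and fibroblasts stayed below 1%.

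Among brain-resident classes, the macrophages held 20 of the 31 proliferating cells. Microglia-like cells gave 3 of 935 (0.321%, 0.0662 to 0.935%) and 6 of 1272 (0.472%, 0.173 to 1.02%). BAM-like cells gave 2 of 1858 (0.108%, 0.0130 to 0.388%) and 9 of 1743 (0.516%, 0.236 to 0.978%), and the ratio of the homozygous to the heterozygous share was 4.80 with an interval of 0.993 to 45.6, which includes 1. Fibroblast-like cells gave 2 of 757 and 3 of 1128, endothelial-like cells 1 of 1909 and 1 of 1813, and choroid plexus epithelium 1 of 1018 and 0 of 530. Markers were mixed in some of these cells. The choroid plexus cell also had 15 UMIs of Mrc1 and 12 of Pf4, which are BAM markers. The endothelial-like cells had 10 and 23 UMIs of Dcn, a fibroblast marker. No mural cell of 533 and no neural or glial cell of 1330 met the rule, which allows shares of up to 0.563% and 0.226%. No mural cell had more than 1 UMI of the 6 genes.

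The proliferating macrophages kept their identity genes at a lower share of their RNA than other cells of their class. Over 10 microglial markers the 9 proliferating microglia had 87.8 to 223 UMIs per 10000 with a median of 139.6, against a median of 240 in 2198 other microglia. Tmem119 and P2ry12, defining genes of microglia, were detected in all 9, with Tmem119 at 1 to 24 UMIs and P2ry12 at 2 to 22. Some of the heterozygous ones also carried BAM markers. The cell with 24 Tmem119 UMIs had 26 UMIs of Mrc1 and 25 of Pf4, and another had 5 of Mrc1 and 28 of Pf4. Over 12 BAM markers the 11 proliferating BAMs had 75.7 to 225 per 10000 with a median of 123, against a median of 181.5 in 3590 others. Mrc1, the mannose receptor, had 1 to 37 UMIs in these 11 cells and Pf4, a chemokine of border macrophages, 6 to 44. The ranges of proliferating and other cells overlapped in both classes, and proliferating microglia were also deeper, with a median of 11721 UMIs against 3292.

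The 3 ependymal-like cells that met the rule, all heterozygous, did so with 5 Cenpf UMIs each and no UMI of the other 5 genes. Their G2 and mitosis genes, 4.24 UMIs per 10000 at the median, were no higher than the 4.43 of other ependymal cells. Cenpf was also present in ependymal cells below the rule, where 21.2% had a UMI and the level was 28.9 CPM, while the other 5 genes together stood at 1.67 CPM. BAMs below the rule showed 25.1 CPM of Cenpf and a UMI in 10.4% of cells, against 3.67 CPM and 1.41% in microglia and 0.797 CPM and 0.188% in mural cells. The median depths of these other BAMs and microglia were close, at 3921.5 and 3292 UMIs. Among the 11 proliferating BAMs, 1 reached its 5 UMIs with 4 from Cenpf and 1 from Cdk1.

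The remaining 30 proliferating cells, 10 and 20 by library, were left unresolved. In 25 no lineage score reached the limit of 0.3, and in 5 a second list came too close. The best-scoring list was the fibroblast list in 12 of them and the BAM list in 4. Their leading gene over other cells was Bpifa1, and unresolved cells as a whole were led by Prl, Wfdc18, Bpifa1 and Dnase1. None of these genes is in a lineage list, so cell types that no list covers may be among them. Of the 163 classed cells, 17 lay near the limits of the classification.

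Proliferating cells were 0.715% (0.550 to 0.914%) of the heterozygous and 1.26% (1.05 to 1.49%) of the homozygous library, a ratio of 1.76 (1.29 to 2.41). The share of myeloid cells moved the same way, from 1.51% to 2.71% of kept cells, a ratio of 1.79 (1.45 to 2.22). For the blood classes, too, the order of the libraries turned with thinning to 2000 UMIs, at 10.4% and 7.89%. Within the blood classes, unthinned, the ratio of proliferating shares was 1.10 (0.755 to 1.64) and outside them 1.54 (0.893 to 2.73), and both intervals include 1. When each cell was thinned to 2000 UMIs, which left out 2208 and 2211 shallower cells, 37 of 6604 (0.560%, 0.395 to 0.771%) and 61 of 8138 (0.750%, 0.574 to 0.962%) still met the rule, and these intervals overlap. Genotype and library cannot be told apart here, since each genotype has 1 library.

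Across all proliferating cells the S-phase and mitotic programmes stood far above the other kept cells. Of 13965 genes with at least 100 UMIs in each library, 683 (4.89%) were called higher, meaning at least 2-fold with an interval without 1 in both libraries, and 2665 (19.1%) were called lower. Since the cells were chosen by cell-cycle genes, the counts that follow are descriptions. Lineage makeup differed as well, with blood classes at 68.4% of proliferating and 4.13% of all kept cells over both libraries. The 6 primary granule genes of neutrophil precursors had median ratios of 437 and 191 here. How much of any call followed lineage makeup was not tested. Genes rare in other cells reached 100 UMIs mainly through the proliferating cells, so a higher call for them was close to fixed in advance. Of the 30 S-phase genes 25 had enough UMIs and 24 were called higher, with median ratios of 10.5 and 9.58, against 0.691 and 0.608 over all genes. Of the 36 G2 and mitosis genes, none of them a selecting gene, 24 had enough UMIs, 23 were called higher and the median ratios were 123 and 74.9.

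The S-phase genes with most UMIs were Dut, Pcna, Rrm2 and Slbp. Dut, the dUTPase that keeps uracil out of DNA, stood at 365 and 327 CPM against 34.9 and 34.1 in other cells. Pcna, the sliding clamp of the DNA polymerases, stood at 308 and 283 CPM against 60.2 and 63.1. Rrm2, the regulated subunit of ribonucleotide reductase, stood at 271 and 258 CPM against 0.9 and 1.4. Slbp, which binds the stem-loop of histone messages, stood at 258 and 242 CPM against 50.1 and 52.1. All 10 replication-dependent histone genes were called higher, although their near-identical copies share reads. Among 17 genes of origin licensing and the helicase, 13 of the 14 with enough UMIs were called higher, with Gmnn, the licensing inhibitor geminin, at 169 and 183 CPM.

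Of the mitotic genes, Cks2, a small CDK-binding protein, stood at 466 and 368 CPM against 6.0 and 9.0 in other cells. Cenpa, the histone H3 variant of centromeres, stood at 390 and 306 CPM. Prc1, which bundles the central spindle, stood at 296 and 326 CPM against 1.2 and 1.1, and Nusap1, a spindle protein, at 295 and 277 CPM against 1.1 and 1.0. All 10 measured mitotic cyclins and kinases and all 15 measured centromere and kinetochore genes were called higher. These counts are no result, since genes this rare in other cells were measured mainly through the proliferating cells. Pttg1, which encodes securin, the inhibitor that holds sister chromatids together until anaphase, was the exception: it was called lower, with 43.4 CPM in proliferating cells of both libraries together against 116 in the others. Its level in other ependymal cells was 370 CPM, above that of the proliferating cells.

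The few proliferating microglia held mostly mitotic message, whereas myeloid cells were split between the phases. A cell was S-leaning when its share of all S-phase UMIs of the proliferating cells was larger than its share of their G2 and mitosis UMIs. This definition centres the split, so the share over all cells is no result. S-leaning cells were 28 of 63 (44.4%, 31.9 to 57.5%) and 69 of 130 (53.1%, 44.1 to 61.9%), and 11 and 21 cells lay near the dividing line. Myeloid cells were 11 of 25 and 45 of 71 S-leaning, or 58.3% (47.8 to 68.3%) together. All 9 proliferating microglia leaned to G2 and mitosis, in both libraries, which gives an S-leaning share of 0% with an exact interval of 0 to 33.6%. They had a median of 64.1 G2 and mitosis UMIs per 10000 and of 6.86 S-phase UMIs, against 2.72 S-phase UMIs in other microglia. Their Pcna counts were 0 to 2 UMIs and Mcm5 counts 0 to 1 in cells of 3000 to 21639 UMIs. The intervals of myeloid cells and microglia did not overlap over both libraries together or in the homozygous library (51.1 to 74.5% against 0 to 45.9%). They overlapped in the heterozygous library (24.4 to 65.1% against 0 to 70.8%), where 3 microglia were proliferating, some of them with BAM markers. Over all classes, S-leaning cells had fewer selecting-gene UMIs, with medians of 19 and 15 against 45 and 39. Other microglia were also shallower than other myeloid cells, with medians of 3292 and 6211 UMIs. Whether microglia in S phase fell below the rule more often was not tested. BAMs were 4 of 11 S-leaning, B-lineage cells 8 of 20 and erythroid cells 8 of 13, and their intervals overlapped those of myeloid cells.

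**Figure D3:**
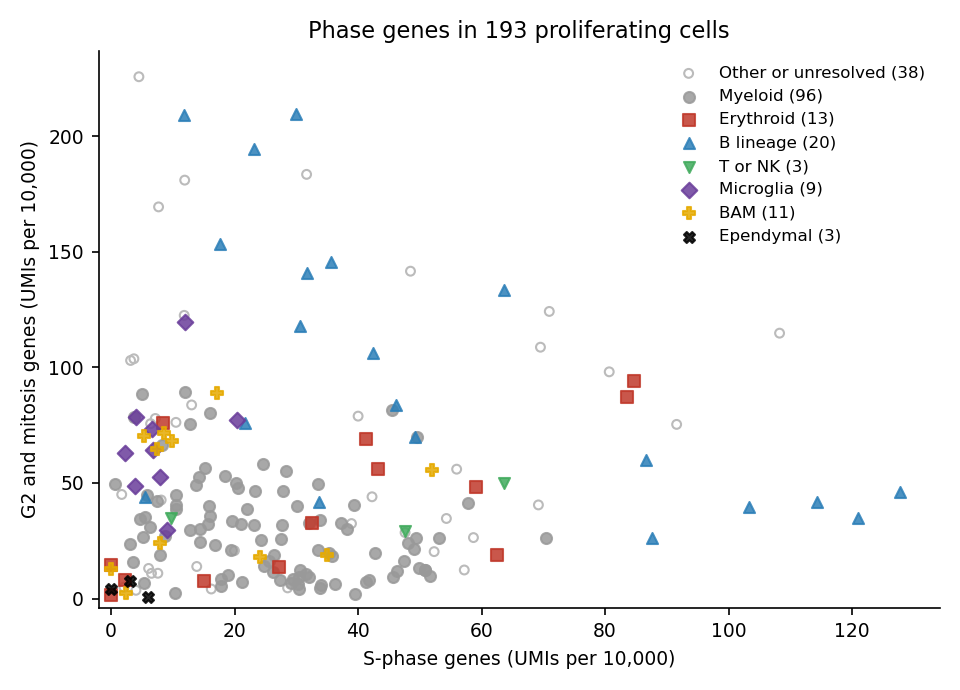
Summed UMIs per 10000 of 30 S-phase genes (horizontal axis) and 36 G2 and mitosis genes (vertical axis) in each of the 193 proliferating cells, with symbols by lineage class. The 9 microglia lie at 2.24 to 20.4 on the S-phase axis and 29.8 to 119 on the mitotic axis, whereas B-lineage cells reach 128 and 210, and 3 ependymal cells lie near the origin.

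The amount of cycle message also differed by lineage. B-lineage cells had the highest medians among classes with over 5 cells on the mitotic axis, 79.7 UMIs per 10000, with 39.0 for S-phase genes. Myeloid cells had medians of 26.3 and 25.2, and erythroid cells 32.6 and 32.6. Selecting-gene levels followed the phase: Ube2c stood at 289 and 120 CPM in S-leaning cells against 953 and 931 in cells leaning to G2 and mitosis, and Cenpf at 171 and 79.2 against 595 and 574. Top2a differed less, at 727 and 626 against 863 and 1093 CPM. S-leaning cells had a selecting-gene median of 19 and 15 UMIs, against 45 and 39, so S-leaning cells lay nearer to the limit of the rule.

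The D cyclins, which pair with CDK4 and CDK6 to start the cycle, differed between lineages. Ccnd1 was the main D cyclin of the macrophages, with 134.7 CPM (14 UMIs) in proliferating microglia and 169.7 CPM (12 UMIs) in proliferating BAMs, against 138.9 and 243.3 CPM in other cells of these classes. In B-lineage proliferating cells Ccnd1 had 1 UMI, and Ccnd3 stood at 953 CPM (79 UMIs) in the heterozygous and 307 CPM (26 UMIs) in the homozygous library, against 113 and 122 in other B-lineage cells. Ccnd3 was also the leading D cyclin of proliferating erythroid cells, at 289 CPM (21 UMIs) and 687 CPM (37 UMIs) against 54.8 and 24.6. Of the 37 homozygous erythroid UMIs of Ccnd3, 23 came from 1 cell that also carried B-lineage markers, with 63 UMIs of Vpreb3 and 22 of Cd79a. Without that cell the homozygous level was 606 CPM (14 UMIs). In proliferating myeloid cells Ccnd3 stood at 164 and 194 CPM against 144 and 150. Ccnd1 stood at 18.5 and 23.2 CPM in proliferating myeloid cells against 126 and 87.3 in the others. Cdk6 stood at 176.3 CPM in proliferating myeloid cells against 72.4 in other myeloid cells, and had no UMI in the 11 proliferating BAMs.

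**Figure D4:**
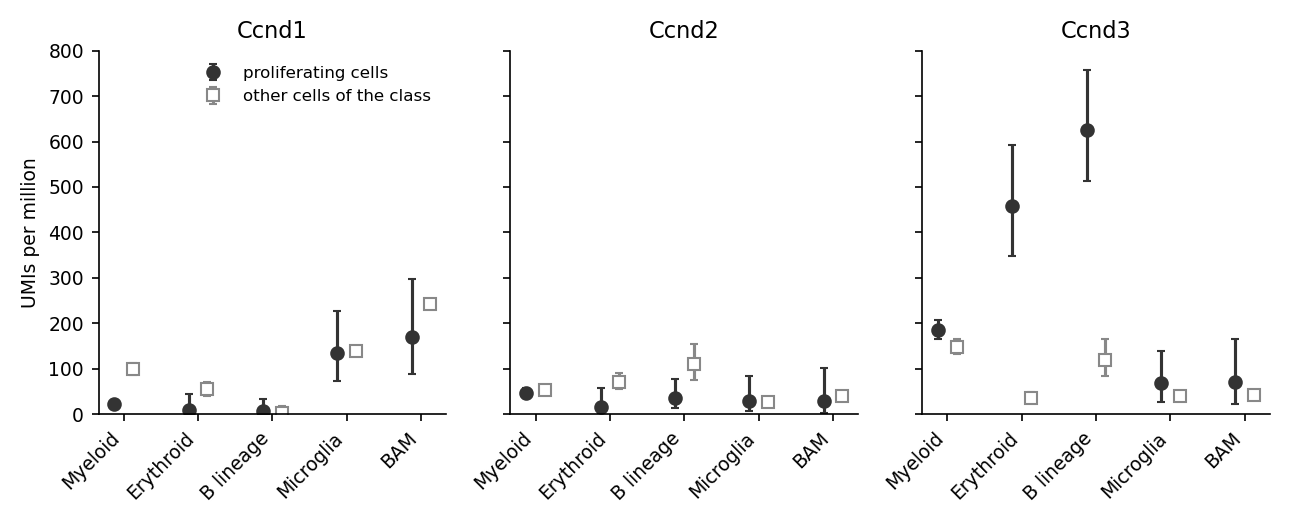
Level in CPM of Ccnd1, Ccnd2 and Ccnd3 in proliferating cells (filled circles) and other cells (open squares) of 5 lineage classes, both libraries together, with exact 95% Poisson intervals. Ccnd3 reached 626.3 in B-lineage and 458.9 in erythroid proliferating cells, and Ccnd1 was highest in microglia and BAMs.

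Of 8 CDK inhibitors listed, 7 had enough UMIs, 3 were called higher and 1 lower over all proliferating cells, where 4.89% of all genes were called higher and 19.1% lower. Cdkn2d, which binds CDK4 and CDK6, stood at 165 and 145 CPM against 23.7 and 25.6, Cdkn2c of the same family at 78.4 and 82.7 against 10.2 and 11.2, and Cdkn3, a mitotic phosphatase that acts on CDKs, at 119 and 73.7 against 0.6 and 0.7. Cdkn1c, p57, was called lower, at 45.9 and 50.04 CPM against 226 and 160. Cdkn1a stood at 141 and 89.6 CPM against 85.3 and 88.1 and was not called.

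Of the listed growth factor receptors 9 had enough UMIs over all proliferating cells, 3 were called higher and 2 (Csf1r and Igf1r) lower. Lineage makeup differed in this comparison too. Csf1r, the receptor for CSF1 and IL-34, stood at 2136 CPM in proliferating microglia and 1443 in proliferating BAMs, against 2766 and 1889 in the other cells of those classes. It was 178 CPM in proliferating myeloid cells against 437 in other myeloid cells, and was called lower there. Kit, the stem cell factor receptor of early progenitors, stood at 37.6 CPM in proliferating myeloid cells against 14.4. Il7r, the interleukin-7 receptor of B-cell precursors, stood at 388 CPM in proliferating B-lineage cells against 126. Il34 itself had 2 UMIs in all 193 proliferating cells.

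Within the myeloid class, proliferating cells were set against the other myeloid cells of the same library. Of 1455 genes with enough UMIs, 101 (6.94%) were called higher in both libraries and 151 (10.4%) lower. Proliferating cells had a median depth of 15770 UMIs against 6211. Among the genes called higher outside the phase lists, Pclaf, a PCNA partner, had the largest ratios, at 703 and 826 CPM against 23.2 and 9.19. It was followed by H1f5, H2ac24, Smc2, Elane, H2ac8 and H2ax, of which the H1 and H2 genes encode histones. H2ac24 stood at 2463 and 2262 CPM against 142 and 106. Smc2, a condensin subunit, stood at 241 and 240 CPM against 21.8 and 9.19.

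All 6 primary granule genes were called higher, with median ratios of 12.2 and 12.5 against 1.07 and 1.04 over all tested genes. The list holds granule proteins and other genes of the promyelocyte stage. Elane, neutrophil elastase, stood at 6654 CPM in heterozygous and 2431 in homozygous proliferating myeloid cells, against 460 and 129 in the others. Mpo, myeloperoxidase, stood at 1899 and 678 CPM against 152 and 58.0. Ms4a3, a membrane protein of granulocyte and monocyte progenitors, stood at 1092 and 409 CPM against 91.4 and 24.1. Fcnb, ficolin B, stood at 748 and 810 CPM against 52.2 and 72.9.

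Of 12 secondary and tertiary granule genes, made at later stages, 11 were measured, 1 (Camp) was called higher and 3 (Mmp8, Mmp9 and Retnlg) lower, beside 6.94% higher and 10.4% lower over all tested genes. Among granulocyte-led cells alone Camp was not called, with ratios of 1.36 and 1.67. Retnlg, resistin-like gamma of mature neutrophils, stood at 63.7 and 162 CPM in proliferating cells against 6167 and 4059. Mmp9, a tertiary granule protease, stood at 34.9 and 28.3 CPM against 353 and 485. Among 8 late neutrophil genes 3 of 6 measured were called lower, including Il1b, the inflammatory cytokine, at 6.17 and 37.8 CPM against 266 and 356. Of 12 growth and quiescence genes 6 were measured, none was called higher and Btg1, Btg2, Klf2 and Txnip were called lower. Cxcl2, a neutrophil-attracting chemokine, stood at 39.1 and 2.58 CPM against 178 and 171, and Slfn5, an interferon-induced gene, at 20.6 and 9.45 against 181 and 181.

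Genes of antigen presentation were also lower, with all 6 measured MHC class II genes called. H2-Aa, an MHC class II chain, stood at 39.1 and 461 CPM in proliferating myeloid cells against 2932 and 3124. H2-Ab1, its partner chain, stood at 18.5 and 373 CPM against 2199 and 2198. H2-Eb1 stood at 12.3 and 407 CPM against 1816 and 2234. Cd74, the invariant chain, stood at 125 and 1040 CPM against 6183 and 7022. Dendritic-led cells were 0 of 96 proliferating and 17 of 317 other myeloid cells. Ccl5, a T and NK cell chemokine, had 0 and 11 UMIs against 184 and 384.
When only granulocyte-led cells were compared (15 against 39 and 39 against 82), Elane, Mpo, Ms4a3 and Fcnb were still called higher and Retnlg and Mmp9 lower, but the MHC class II genes were no longer called: H2-Aa stood at 16.4 against 710 CPM in the heterozygous and at 694 against 603 CPM in the homozygous cells.

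Primary-led cells made up a larger share of proliferating than of other myeloid cells. Cells with at least 10 granule UMIs were called primary-led when primary granule UMIs exceeded secondary and tertiary ones. Of the proliferating myeloid cells, 12 of 24 (50%, 29.1 to 70.9%) and 23 of 64 (35.9%, 24.3 to 48.9%) were primary-led, against 6 of 64 (9.38%, 3.52 to 19.3%) and 7 of 152 (4.61%, 1.87 to 9.26%) of the other myeloid cells. The intervals did not overlap in either library. These shares take in monocyte-led cells, since granulocyte-led cells were 15 and 39 of the proliferating and 39 and 82 of the others. Some secondary-led cells had no UMI of Camp, Ngp, Ltf or Lcn2, such as 1 with 32 UMIs of Ly6c2, a monocyte marker. The shares were not recomputed in granulocyte-led cells, so monocyte content and granule stage cannot be told apart here. Among proliferating cells, 26 of 51 S-leaning cells (51.0%, 36.6 to 65.2%) and 9 of 37 leaning to G2 and mitosis (24.3%, 11.8 to 41.2%) were primary-led, and these intervals overlap. The median of secondary and tertiary granule UMIs was 8.82 and 11.5 per 10000 in S-leaning cells against 112 and 919 in cells leaning to G2 and mitosis. The pooled level of primary granule genes did not have 1 direction, at 108 UMIs per 10000 in S-leaning against 222 in other heterozygous proliferating cells, and 84.0 against 44.1 in the homozygous library.

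**Figure D5:**
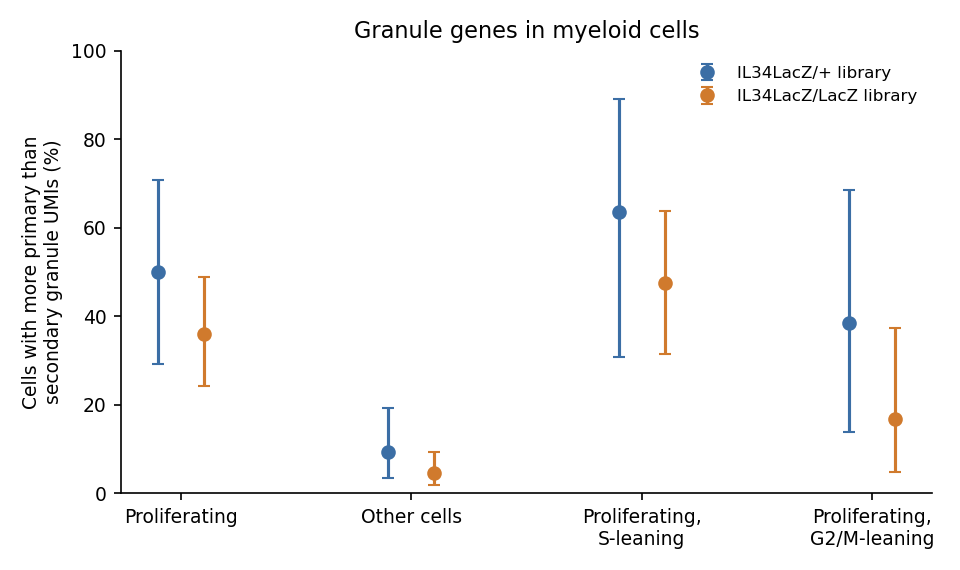
Percent of myeloid cells with at least 10 granule UMIs that had more primary than secondary and tertiary granule UMIs (points) with exact 95% binomial intervals (bars), by library. Proliferating cells stood at 50% and 35.9%, the other cells at 9.38% and 4.61%. Monocyte-led cells are included.

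Of 281 genes measured in the 13 erythroid proliferating cells, 114 (40.6%) were called higher and 47 (16.7%) lower, so calls were common in this class. The homozygous cell with B-lineage markers held 30740 of the 53833 UMIs (57.1%) of the 5 homozygous cells. Without it, an alternative chosen after seeing the data, 106 genes were called higher and 35 lower of 275 measured. The genes named here are among those of largest ratio. H2ac24 stood at 3611 and 2526 CPM against 3.04 and 6.57, and Hmgb2, a chromatin protein of dividing cells, at 3170 and 3975 against 70.0 and 64.0. The other erythroid cells held 1 and 4 UMIs of H2ac24, so this gene was measured through the proliferating cells. Tmem14c, which carries haem precursors across the mitochondrial membrane, stood at 1709 and 1115 CPM against 57.9 and 67.3. Car2, carbonic anhydrase of red cells, stood at 4011 and 2173 CPM against 201 and 149. Prdx2, the peroxiredoxin of red cells, stood at 4700 and 1858 CPM against 292 and 256, and Blvrb, a biliverdin reductase, at 1861 and 1022 against 88.3 and 107. Cd24a, a surface protein of red cell precursors, stood at 1943 and 2043 CPM against 195 and 122. Without the homozygous cell with B-lineage markers, H2ac24, Hmgb2 and Tmem14c had too few UMIs in the homozygous library for a call. Their homozygous levels were then 2338, 2338 and 2382 CPM, with ratios of 356, 36.5 and 35.4. Car2, Prdx2, Blvrb and Cd24a kept their higher call.

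Several genes called lower in erythroid proliferating cells are markers of other cell types. C1qa and C1qc, complement subunits of macrophages, stood at 673 and 1102 CPM and at 484 and 747 CPM in the other erythroid cells, against 2 UMIs or fewer of each per library in the proliferating ones. Lyz2, lysozyme of myeloid cells, had 1 and 0 UMIs, and Mgp, matrix Gla protein of vascular and fibroblast cells, 7 and 4 UMIs against 914 and 1720. The immediate-early genes Egr1, Fos, Jun and Junb were called lower as well, but Jun lost its call without the homozygous cell with B-lineage markers (ratio 0.692 in that library). Haemoglobin and other erythroid markers were at 3365 UMIs per 10000 in proliferating cells at the median against 4709 in the others. The part of RNA from other cells in these calls was not tested.

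B-lineage proliferating cells had less message of mature B-cell genes than other B-lineage cells and more of chromatin and tubulin genes. Of 214 genes measured, 28 (13.1%) were called higher and 16 (7.48%) lower. Pclaf stood at 2824 and 2336 CPM against 12.5 and 72.2, Stmn1, the microtubule regulator stathmin, at 3258 and 2430 against 62.6 and 108, and Tubb5, a tubulin, at 2353 and 2513 against 188 and 208. The other B-lineage cells held 1 and 16 UMIs of Pclaf, so this gene was measured through the proliferating cells. Hmgb2 stood at 8182 and 8894 CPM against 889 and 627, and Hmgn2, a nucleosome-binding protein, at 1231 and 1486 against 100.1 and 85.7. The light chain constant genes Iglc1, Iglc2 and Iglc3, which share reads, were called lower, with 0 UMIs of each in heterozygous proliferating cells. Igkc, the kappa light chain, stood at 1279 and 2312 CPM against 10162 and 9444. Cd74 stood at 24.1 and 861 CPM against 9536 and 6990, Cd52, a lymphocyte surface antigen, at 121 and 413 against 2353 and 2355, and Btg1, an antiproliferative gene, at 338 and 484 against 2841 and 3005. Of the 73 homozygous Cd74 UMIs, 53 came from 1 cell that also had 721 UMIs of Ttr, a gene of choroid plexus epithelium.

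Vpreb3, which assembles with the precursor receptor chains, was not called, at 2631 and 2937 CPM in proliferating and 2503 and 3168 in other B-lineage cells. Among 14 pro-B and pre-B genes it was the single one with enough UMIs for a call. All 4 measured genes of the mature B list were called lower, namely Cd74, H2-Aa, H2-Ab1 and Igkc, of which 3 are also in the MHC class II list.

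Between the libraries, 5 primary granule genes were lower and 4 MHC class II genes higher in homozygous proliferating myeloid cells. The design asked for 50 proliferating cells of a class in each library, which no class reached, so 25 heterozygous and 71 homozygous myeloid cells were compared after this was seen. Of 2034 genes measured, 57 (2.8%) were called higher and 13 (0.639%) lower in the homozygous cells. Of the 6 primary granule genes 5 were called lower, with a median ratio of 0.370 against 0.988 over all genes. Elane stood at 6654 against 2431 CPM (ratio 0.365, 0.347 to 0.384), Prtn3, proteinase 3, at 5501 against 2239 (0.407, 0.385 to 0.430), Mpo at 1899 against 678 (0.357, 0.324 to 0.393) and Ctsg, cathepsin G, at 1431 against 385 (0.269, 0.238 to 0.303). Fcnb was not called, with a ratio of 1.08. Between 9.28 and 22.7% of the UMIs of Prtn3, Elane, Mpo and Ctsg in both libraries together came from 1 cell. Within the heterozygous library single cells weighed more. There 1 cell held 809 of 3237 Elane and 316 of 924 Mpo UMIs. Another held 490 of 2676 Prtn3 and 260 of 696 Ctsg UMIs. Of 5 MHC class II genes measured 4 were called higher, with a median ratio of 11.8. H2-Aa stood at 39.1 against 461 CPM (ratio 11.8, 7.49 to 19.8) and Cd74 at 125 against 1040 (8.30, 6.41 to 10.9). Of the UMIs of the 4 genes in both libraries together, 22.2 to 29.6% came from 1 cell. Of 18 S-phase genes measured 1 was called higher, and of 15 G2 and mitosis genes none was called in either direction.

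The genes highest in homozygous myeloid proliferating cells marked a few cells. Prg2 and Epx, granule proteins of eosinophils, had 0 UMIs in heterozygous cells and 1818 and 150 in homozygous cells, of which 72.2% and 87.3% came from 1 cell. Mcpt8 and Prss34, basophil proteases, had 3 and 0 UMIs against 502 and 1520, with 51.3% and 60.4% from 1 cell. Cma1, Mcpt2 and Mcpt4, mast cell proteases, had all their 248, 487 and 145 UMIs in 1 cell each. The homozygous library held 5 mast or basophil-led proliferating cells and the heterozygous library 0. Restricted to granulocyte-led proliferating cells (15 and 39), Elane, Prtn3, Mpo and Ctsg had ratios of 0.216, 0.200, 0.122 and 0.0339. Of their UMIs in both libraries together, 16.1 to 44.0% came from 1 cell. Prg2, Epx, Cma1, Mcpt2 and Mcpt4 had no UMI in these cells in either library. Nkg7, a granule membrane protein, was also lower, with a ratio of 0.364 over all proliferating myeloid cells.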

How the data were processed

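The authors deposited 1 matrix of raw UMI counts for each library. Its header names Cell Ranger 5.0.0. GRCm38.p6 and mm10 are the builds named, per the submitters' processing notes. The kit was the Chromium 3′ v3.1, per the labels. Barcodes were filtered as the report states, in Python 3.11.15 with scanpy 1.11.5 and scipy 1.17.1, and doublets were called by Scrublet but kept. Lineage scores were the mean log expression of a marker list, less the median over cells and scaled by the 50 highest cells. A class needed a score of 0.3, 3 detected markers and 1.25 times the next score. Members, lists and classes were chosen with earlier results of these data known, and the scoring rule, the merging of classes and the minimum of 5 proliferating cells per library for a gene comparison after the data were seen. Named genes were the selecting genes, up to 4 of highest UMI count from each list, and the 10 called genes of largest and of smallest ratio outside the phase lists. Genes needed 100 UMIs in each library, members and others together, or 100 in both libraries together between genotypes. A gene rare in the other cells could therefore enter through the proliferating cells alone. Calls needed a 2-fold ratio and an exact interval without 1. Intervals cover counting error only, binomial for shares (Clopper-Pearson), Poisson for levels. For a count of 0 the limit is 3 counts of the total. The comparison of proliferating with other myeloid cells was tried on simulated counts with 4-fold changes and no variation between cells. The other comparisons were not simulated. Alternatives were other UMI sums, mitochondrial and depth limits, no doublets, a stricter lineage lead, thinning to 2000 UMIs, equal weight per cell and other gene minimums.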

Additional observations from a re-analysis of the deposited data

Results flagged for a closer look

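Barcodes left out by the filters also held the selecting genes. A sum of 5 or more UMIs was found in 25 of 8356 such barcodes (0.299%, 0.194 to 0.441%) of the heterozygous library and in 22 of 8509 (0.259%, 0.162 to 0.391%) of the homozygous library. Of these, 23 and 21 exceeded the mitochondrial limit, with median mitochondrial shares of 13.5% and 12.9% and median depths of 6410 and 6613 UMIs over these barcodes.

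A few genes were called in opposite directions in the 2 libraries when proliferating cells were set against other cells of their class, and these differences between libraries were not tested. In myeloid cells, Enpp2, an enzyme of choroid plexus epithelium, had a ratio of 6.23 in the heterozygous and 0.252 in the homozygous library, and Ttr, the transthyretin of the same epithelium, 2.70 and 0.171. A single cell held 69.1% of the Enpp2 UMIs and 55.7% of the Ttr UMIs of the proliferating myeloid cells. In erythroid cells, Gapdh, a glycolytic enzyme, had ratios of 0.426 and 2.60, and Tmsb10, an actin-binding protein, 0.0354 and 3.00, with 8 and 5 proliferating cells behind them. Without the homozygous cell that carried B-lineage markers (chosen after seeing the data), the homozygous ratios were 1.67 for Gapdh and 0.241 for Tmsb10, so neither was then called in opposite directions.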

How the results depend on the processing

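No paired analysis was possible because each genotype had 1 library and no result came from a test. Of 314 recomputed shares and gene counts, 270 stayed within the interval or within 1.5 times of the reported value and 44 moved. Thinning turned the order of the libraries for the shares of blood and of myeloid cells that met the rule. Of 340 recomputed ratios of named genes with enough UMIs, none changed direction and 339 kept their call. Lbp lost its call with equal weight per cell (ratio 0.544). Genes that fell below the UMI minimum in an alternative, and granulocyte-led cells alone, were not part of this count. In granulocyte-led cells Cd74, H2-Aa, H2-Ab1 and H2-Eb1 lost their lower call, with homozygous ratios of 1.11, 1.15, 1.45 and 1.19. Ccl5, Il1b, Cxcl2, Slfn5, Smc2 and H2ax had too few UMIs there for a call against other cells.

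With a sum of 3 UMIs, 0.976% of heterozygous and 1.56% of homozygous cells met the rule. Resident cells then were 32.6% of heterozygous proliferating cells, the resident shares were 0.388% and 0.439%, those of BAMs 0.646% and 1.03%, and that of homozygous ependymal cells 2.76%. With a sum of 10 UMIs, the homozygous shares were 0.957% of all, 13.4% of blood and 20.4% of myeloid cells, and the heterozygous ependymal share was 0%, as it was when 2 selecting genes were required (chosen after seeing the data). A mitochondrial limit of 5% gave 1.14% and 1.74% of kept cells, and a limit of 20% gave 1.05% in the homozygous library. A minimum of 2000 UMIs gave 0.924% and 1.55%. Thinning to 2000 UMIs gave 10.4% and 7.89% of blood cells, 10.5% and 9.16% of myeloid cells and 0% of heterozygous ependymal cells. In the thinned homozygous library 0.750% of cells met the rule, and 60.7% of those were blood and 40.98% myeloid cells. A lineage lead of 2 gave 27.6% of heterozygous erythroid cells, 0% of heterozygous choroid plexus cells and 0% of homozygous endothelial cells.

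Gene counts followed the minimum of UMIs, since it sets how many genes enter. At 50 UMIs, 179 genes were called higher and 258 lower in myeloid, 103 lower in erythroid, and 69 higher and 33 lower in B-lineage proliferating cells, and 149 higher and 36 lower between libraries. At 200 UMIs, the counts were 51 and 83 in myeloid, 15 lower in erythroid, 14 and 7 in B-lineage cells, and 27 higher between libraries. In granulocyte-led cells alone (chosen after seeing the data), 51 were called lower against other cells and 44 lower between libraries. Depth and the small number of cells limit every class.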
